A study of Mus musculus with 24 samples.

Results

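AMPA receptors carry most fast excitatory transmission in the brain, and 10 of their genes were followed here through the cell types of the mouse primary motor cortex and dorsal striatum. The 10 were chosen by symbol from the 54235 features listed in the count matrices: the pore-forming subunits Gria1, Gria2, Gria3 and Gria4, and the transmembrane AMPA receptor regulatory proteins (TARPs) Cacng2, Cacng3, Cacng4, Cacng5, Cacng7 and Cacng8. All 10 symbols were present, each on 1 row. An AMPA receptor is a tetramer of Gria products, and its subunit mix sets its conductance, its kinetics and its permeability to calcium. TARPs are auxiliary subunits that bind the pore-forming subunits. They act on the transport of receptors to the cell surface and the synapse and on how fast receptors close, with effects that differ between TARPs. Cacng2 encodes stargazin, the TARP whose loss gives the stargazer mouse its ataxia.

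The libraries came from mice trained on a forelimb reaching task. Motor cortex was taken from Fos-CreER::Ai9 mice and striatum from Arc-CreER::Ai9 mice, in which 4-hydroxytamoxifen (4-OHT) lets cells with an active Fos or Arc promoter switch on a red reporter, so region and genotype cannot be told apart. The early group was labelled after 2 days of training, the late group after 8 days, and the control group received 4-OHT without training. All tissue was taken 3 days after labelling. Each hemisphere was pooled from 2 mice, and the 2 hemispheres were summed here, which gave 12 pools, 2 for each region and stage. One striatal control pool had the matrix of 1 hemisphere only. The pool was the unit of replication, and the cells were not selected by the reporter. The study compared the stages, and the design also allows comparisons of cell classes, regions and hemispheres.

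The Gria genes share a short stretch of the pore loop in which RNA editing changes 1 base of the Gria2 message. The 45 genomic bases around this Q/R site (GRCm38, GENCODE M21) are printed because edited Gria2 keeps a receptor largely closed to calcium, which is why the share of Gria2 among the 4 genes is given for each class below. The codon that is edited in Gria2, and its counterpart in the others, is in capitals, and all are read along the coding strand.
Gria1: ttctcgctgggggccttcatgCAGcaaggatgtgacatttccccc
Gria2: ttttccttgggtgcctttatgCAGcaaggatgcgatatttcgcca
Gria3: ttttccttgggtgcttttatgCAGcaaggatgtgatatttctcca
Gria4: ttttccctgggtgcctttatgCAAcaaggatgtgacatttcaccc
The stretches lie at chr11:57243073-57243117 on the plus strand (exon 11 of 16 of Gria1), chr3:80706890-80706934 on the minus strand (exon 11 of 16 of Gria2), chrX:41610244-41610288 on the plus strand (exon 11 of 16 of Gria3) and chr9:4464116-4464160 on the minus strand (exon 12 of 17 of Gria4). Against Gria2, the Gria1 stretch differed at 9 of the 45 bases, that of Gria3 at 3 and that of Gria4 at 6. The genome gives the unedited codon in Gria2, CAG, as in Gria1 and Gria3, and CAA in Gria4. Libraries that count 3' ends do not read this exon, so the edited share was not measured.

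The genes themselves are scattered over 6 chromosomes. Gria1 lies at chr11:57011387-57330244 (plus strand), Gria2 at chr3:80681450-80802835 (minus), Gria3 at chrX:41400854-41678601 (plus) and Gria4 at chr9:4417896-4796234 (minus). Among the TARPs, Cacng2 lies at chr15:77991748-78120028 (minus) and Cacng3 at chr7:122670492-122769393 (plus). Cacng4 (chr11:107732357-107794557, minus) and Cacng5 (chr11:107874605-107915055, minus) lie close together, as do Cacng7 (chr7:3332955-3368221, plus) and Cacng8 (chr7:3390683-3415648, plus).

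The 23 matrices, from 24 libraries, held 5260446 to 30470621 UMIs (unique molecular identifiers, 1 per captured RNA molecule) per library, and 467 to 6606 cells per library were kept, with medians of 2048 to 5725 UMIs. The barcode lists held 138555 entries, of which 135555 were distinct. The rate at which pools shared barcodes split them into 2 groups, A (the pools numbered 1 of the control and late groups in both regions, 4 pools) and B (the other 8, with every early pool). Pairs of pools shared barcodes at a rate, per 1000000 barcode pairs, of 1.36 within A, 0.259 within B and 0.0247 between them, and the labels name 2 kit versions without saying which library used which. This group was a covariate in every comparison of stages or regions. The labels also name 6 batches: in each region the control and late pools numbered 1 form one and control pool 2 with early pool 1 another, while the early pools numbered 2 of both regions share one, as do the late pools numbered 2. Cells were clustered without the 10 genes and without the other AMPA receptor lists used below, and clusters were named from marker genes. The names are short for "glutamatergic neuron-like" and so on throughout. Orders of levels are over named classes and subtypes: 5851 of 16383 glutamatergic, 905 of 3723 cortical GABAergic, 4439 of 20752 spiny and 642 of 1975 striatal GABAergic cells had no subtype name. A level is in CPM (counts per 1000000 UMIs) of the summed cells of a class in a pool, given as mean ± SD over the 6 pools of a region unless another n is stated. Because 1 UMI stands for 1 molecule whatever its length, levels were compared between genes without a length correction, although capture at the 3' end can differ between genes.

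Gria2 was the most abundant of the 10 genes in most classes, and its highest level, as a share of a class's UMIs, was not in a neuron. Cortical astrocytes held 2116 ± 385 CPM (1688 at the lowest, 2042 at the median and 2771 at the highest), against 1035 ± 138 in cortical glutamatergic neurons (802 at the lowest, 1094 at the median and 1140.4 at the highest). All 6 astrocyte pools lay above all 6 glutamatergic pools. This order is not one of UMIs per cell. The astrocytes had 5721536 UMIs in 3000 cells and the glutamatergic neurons 142781252 in 16383. By these totals and mean levels the glutamatergic neurons held more Gria2 UMIs per cell than the astrocytes, the opposite order. An order per cell can differ in the other comparisons of levels between classes too. Cortical oligodendrocyte precursors, glial cells that receive synapses from neurons, held 1406 ± 303 and striatal ones 1210.5 ± 428. In the striatum the highest level was in spiny projection neurons, the GABAergic output cells, at 1346 ± 342 (832 at the lowest, 1446 at the median and 1719 at the highest), and their range overlapped that of the oligodendrocyte precursors. GABAergic interneurons held 644 ± 119 in cortex and 577 ± 159 in striatum, and cholinergic interneurons had the lowest neuronal level, 163 ± 43.6. Microglia held 19.2 and 35.6 CPM in the 2 regions, which is 1.85% and 2.65% of the projection neurons' level. A list of 8 neuronal genes (such as Snap25 and Syt1) stood in the same microglia at 1.96% and 3.04%, close to their Gria2 percentages.

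**Figure D1:**
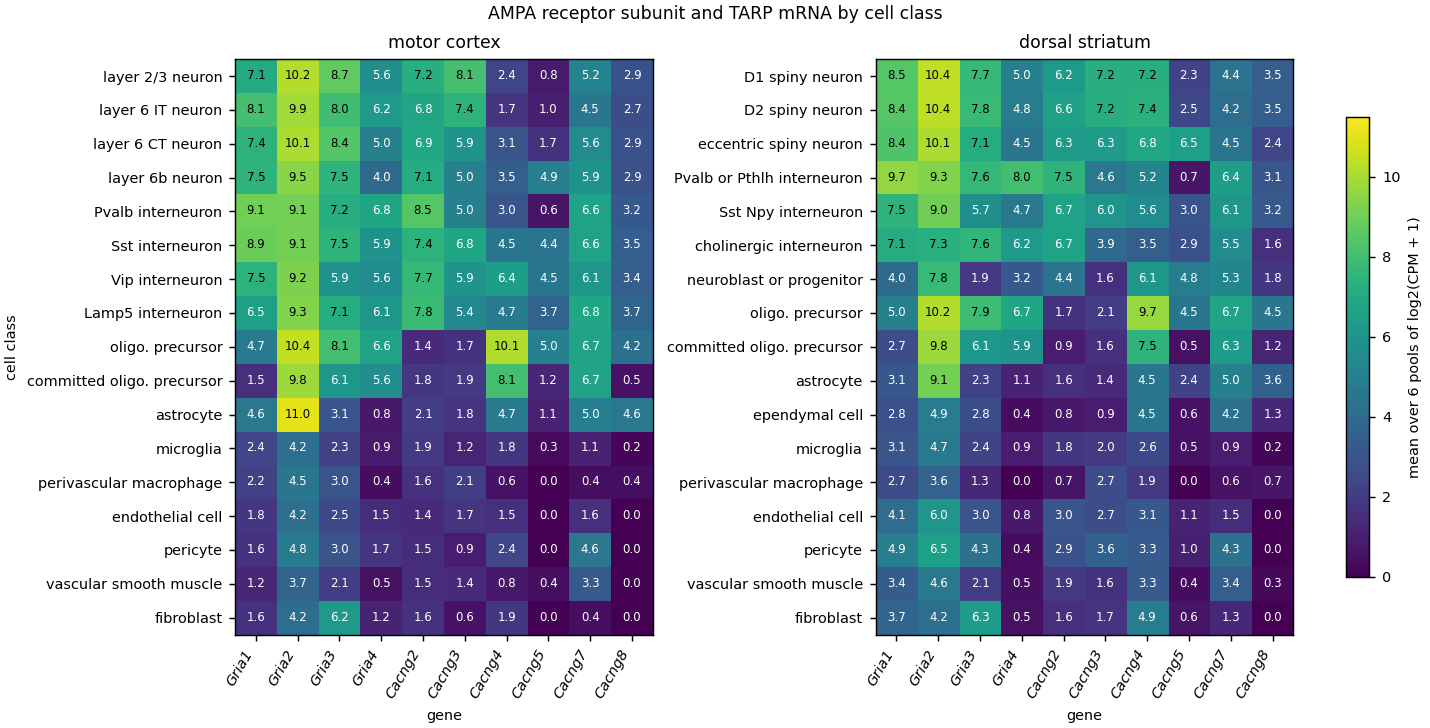
Mean level of each gene (columns) in each cell class or neuron subtype (rows) of the motor cortex (left) and the dorsal striatum (right), as log2(CPM + 1) averaged over 6 pools, with the value printed in each cell. The Gria2 column is bright in neurons, oligodendrocyte precursors and astrocytes, the Cacng4 column in oligodendrocyte precursors, committed precursors and spiny neurons. The lower rows (microglia, macrophages, vessel cells) hold lower values for most genes, with striatal pericytes at 215 ± 277 CPM of Gria2 and striatal fibroblasts at 86.4 ± 31.02 of Gria3. In those pericytes the neuronal list stood at 31.95% of the spiny level (single genes 17.8% to 91.9%) and Gria2 at 15.95%.

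Gria1, whose product is recruited to synapses during plasticity, was a neuronal gene with its peak in interneurons. In the striatum the interneurons marked by Pvalb or Pthlh reached 820.1 ± 175 CPM (595 at the lowest, 862 at the median and 1028 at the highest). In the cortex the Pvalb interneurons led at 552 ± 131 (357 at the lowest, 599 at the median and 706 at the highest), followed by Sst interneurons at 479 ± 68.9, and the ranges of these 2 overlapped. Spiny projection neurons held 359 ± 62.4, cortical glutamatergic neurons 162 ± 30.8 and cortical Lamp5 interneurons 93.98 ± 22.6. Among the named cortical projection neurons Gria1 was highest in layer 6 intratelencephalic cells (283 ± 52.7) and lowest in layer 2/3 cells (135 ± 23.3). The unnamed glutamatergic sub-cluster with the most cells, 1895, led by Rorb, held less Gria1 than these by its mean, 90.8 ± 17.2. Oligodendrocyte precursors held 26.1 and 31.9 CPM in cortex and striatum.

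Gria3 followed another order. It was highest in layer 2/3 neurons (421 ± 85.8 CPM, 309.9 at the lowest, 454 at the median and 502 at the highest) and in layer 6 corticothalamic neurons (349.5 ± 70.6). Oligodendrocyte precursors of cortex and striatum held 271 ± 60.3 and 265 ± 102, and their ranges overlapped those of glutamatergic neurons (279 ± 58.8) and spiny projection neurons (214 ± 67.3) of the same region. The unnamed Rorb-led glutamatergic sub-cluster held 26.5 ± 13.6 CPM of Gria3 (10.6 to 50.9), far below the named projection neurons. Cortical Vip and striatal Sst Npy interneurons were low, at 59.9 and 55.9, and astrocytes held 8.62 and 4.06. Gria4, whose product closes fast, peaked in the striatal Pvalb or Pthlh interneurons at 265 ± 70.98 CPM (159 at the lowest, 291 at the median and 343 at the highest), and no pool of cortical Pvalb interneurons (111 ± 13) reached their lowest value. Oligodendrocyte precursors held 99.1 ± 18.2 in cortex and 111 ± 33.9 in striatum, more than glutamatergic neurons (60.2 ± 9.25) or spiny projection neurons (31.99 ± 9.38) by their means. Astrocytes held 1.25 and 2.18 CPM.

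The mix of the 4 subunits was taken as each gene's share of the Gria UMIs of a class. In cortical glutamatergic neurons Gria2 made up 67.5% ± 1.94, Gria3 18.04% ± 1.38, Gria1 10.5% ± 0.681 and Gria4 3.93% ± 0.299. Spiny projection neurons had a like Gria2 share (68.8% ± 1.38) with Gria1 (18.7% ± 1.70) ahead of Gria3 (10.8% ± 1.08). In Pvalb interneurons of the cortex Gria1 and Gria2 were level, at 40.1% ± 4.36 and 40.98% ± 3.04. In striatal Pvalb or Pthlh interneurons Gria1 (42.3% ± 2.13) exceeded Gria2 (33.6% ± 1.32), and the lowest Gria1 share of a pool, 39.98%, was above the highest Gria2 share, 35.2%. Cholinergic interneurons had the most even mix: Gria3 34.5% ± 7.08, Gria2 28% ± 1.91, Gria1 24.6% ± 3.86 and Gria4 12.9% ± 2.49, from 26 to 72 cells per pool. In astrocytes the mix was nearly all Gria2, 98.3% ± 1.02 in cortex and 97.1% ± 2.33 in striatum. Oligodendrocyte precursors held 77.98% ± 0.646 and 74.6% ± 1.21 Gria2, 15.01% and 16.1% Gria3, and only 1.45% and 2.27% Gria1.

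**Figure D2:**
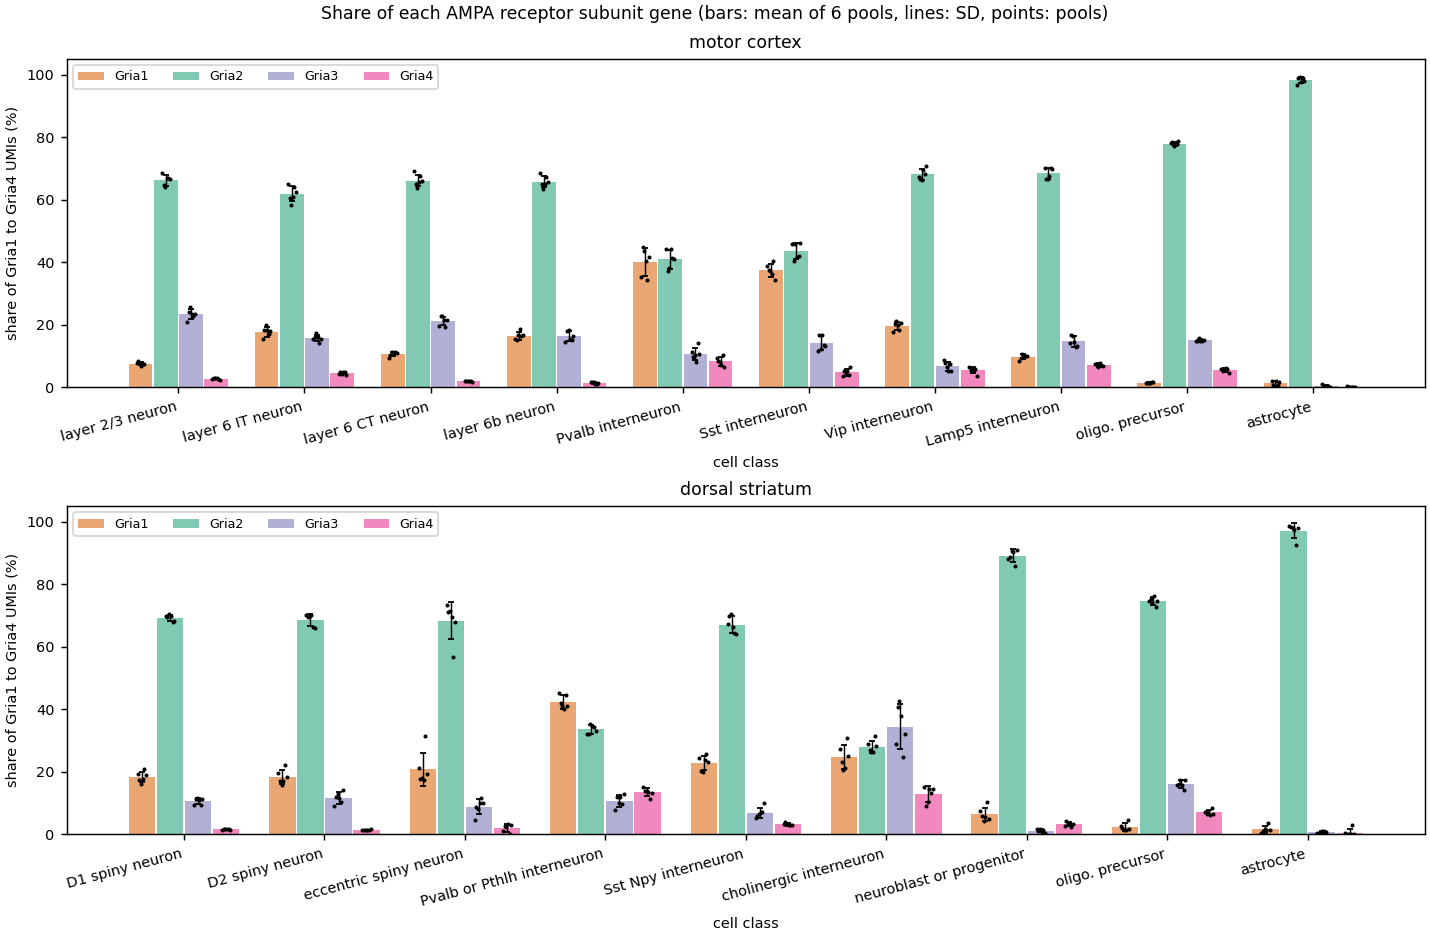
Share of Gria1, Gria2, Gria3 and Gria4 among the UMIs of the 4 genes, in percent, for neuron subtypes, oligodendrocyte precursors and astrocytes of motor cortex (top) and dorsal striatum (bottom). Bars are means of 6 pools, lines the SD and points the pools. Gria2 is the tallest bar except in striatal Pvalb or Pthlh interneurons, where Gria1 stands at 42.3%, and in cholinergic interneurons, where Gria3 stands at 34.5%.

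These shares were compared within 12 pairs of classes by an exact two-sided sign-flip permutation test over the 6 pools, 48 tests in all, whose smallest possible p is 0.03125. Of the 48, 35 reached it in the same direction in 6 of 6 pools (Benjamini-Hochberg adjusted p = 0.0429). The 4 shares of a class are parts of 1 total, so the tests of a pair are not independent. All 35 have the same p, so each call also rests on how many of the 48 tests reached it. Glutamatergic neurons minus cortical GABAergic interneurons gave -12.9 ± 1.40 percentage points (SD) for Gria1, 8.25 ± 2.73 for Gria2, 6.81 ± 1.33 for Gria3 and -2.19 ± 0.294 for Gria4. Spiny projection neurons minus striatal GABAergic interneurons gave 20.7 ± 2.58 points for Gria2, -15.7 ± 1.46 for Gria1 and -7.39 ± 1.34 for Gria4, so the interneurons' mix held less Gria2 and more Gria1 in both regions. The D1 and D2 spiny neurons showed no called share difference (adjusted p = 0.688 for Gria1, 0.209 for Gria2, 0.0789 for Gria3 and 0.0789 for Gria4 by the exact sign-flip test). Between Pvalb and Sst interneurons 1 of the 4 shares was called, that of Gria4 (3.52 ± 2.28 points). Oligodendrocyte precursors had a lower Gria2 share than astrocytes (-20.3 ± 1.31 points in cortex and -22.5 ± 1.71 in striatum) and a higher Gria3 share (14.6 ± 0.671 and 15.5 ± 1.32).

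Of the TARPs, Cacng2 and Cacng3 were both neuronal, with different peaks. Cacng2, the stargazin gene, was highest in cortical Pvalb interneurons (353 ± 37.1 CPM, 298 at the lowest, 350.0 at the median and 392 at the highest), and cortical GABAergic interneurons as a class (224 ± 17.1) lay above glutamatergic neurons (135 ± 7.44) without overlap. Striatal GABAergic interneurons (138 ± 16.6) lay above cholinergic interneurons (99.8 ± 6.95), again without overlap, and the cholinergic range overlapped that of spiny projection neurons (83.8 ± 11.1). Cacng3 was highest in layer 2/3 neurons (277 ± 66.05, 200.02 at the lowest, 269.5 at the median and 372 at the highest) and layer 6 intratelencephalic neurons (173 ± 34.8), and reached 139.6 ± 34.6 in spiny projection neurons. The lowest layer 2/3 pool, 200.02, was far above the highest layer 6 corticothalamic pool, 78.8. Pvalb interneurons (34.4 ± 16.1) and striatal Pvalb or Pthlh interneurons (25.1 ± 14.5) held little of it. Oligodendrocyte precursors held only 1.97 and 4.28 CPM of Cacng2.

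Cacng4 was highest in oligodendrocyte precursors, with lower levels in committed precursors, spiny neurons and striatal neuroblasts or progenitors. Oligodendrocyte precursors held 1147 ± 195 CPM in cortex (844 at the lowest, 1134 at the median and 1367 at the highest) and 856 ± 153 in striatum (549.7 at the lowest, 907 at the median and 969 at the highest). Committed oligodendrocyte precursors, the next step towards myelinating cells, held 296 ± 124 and 185 ± 55.3, in both regions below every precursor pool. Spiny projection neurons held 149 ± 26.6, with 167 in D2 cells, 149 in D1 cells and 114 in the eccentric spiny neurons, a further spiny type marked by Otof. Striatal neuroblasts or progenitors stood at 48.4% of the spiny level, and their cluster with Dcx, given below, held more than the spiny mean. Cortical glutamatergic neurons held 5.17 ± 0.700, and no pool exceeded 6.06. Cortical Vip interneurons (84.7 ± 17.3) held more than Pvalb interneurons (7.88 ± 3.59) and their ranges did not overlap.

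The other TARPs were Cacng5, Cacng7 and Cacng8. Among the named spiny subtypes Cacng5 was highest in eccentric spiny neurons (93.6 ± 38.2 CPM, 62.2 at the lowest, 78.5 at the median and 162 at the highest), against 4.16 in D1 and 4.71 in D2 spiny neurons. A pair of spiny sub-clusters that stayed unnamed for want of markers, with Casz1 among the leading genes of both, lay outside these subtypes and held 65.6 ± 16.9 CPM of Cacng5 (510 cells, 6 pools) and 68.9 and 76.8 CPM (435 cells, the 2 pools with at least 20 of them). Before subtypes were drawn, the spiny cluster led by Otof and Casz1 held 73.2 ± 8.77 CPM of Cacng5 over 6 pools, and the means of the other 4 spiny clusters were 1.80 to 14.4. Layer 6b neurons (29.9 ± 5.55), striatal neuroblasts or progenitors (27.7 ± 3.70) and oligodendrocyte precursors (32.4 and 21.7) also held it, and layer 2/3 neurons (0.786) and Pvalb interneurons (0.794) hardly did. Cacng7 was spread over Lamp5 interneurons (113 ± 26.5), committed oligodendrocyte precursors (107 ± 34.2 and 80.9 ± 23.3) and oligodendrocyte precursors (104 ± 15.4 and 105 ± 21.8), with 20.6 ± 4.53 in spiny projection neurons. Cacng8 stood at 23.8 ± 8.45 in cortical astrocytes (11.9 at the lowest, 22.2 at the median and 36.6 at the highest), 18.2 ± 5.64 and 22.8 ± 5.90 in oligodendrocyte precursors and 6.49 ± 2.07 in cortical glutamatergic neurons. In cortical endothelial cells Cacng5 and Cacng8 had 0 UMIs, which allows up to 0.739 CPM (3 counts over the class, counting error only).

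Each TARP's share of all TARP UMIs was also taken, with no test. Oligodendrocyte precursors were 87.7% ± 1.12 Cacng4 in cortex and 84.1% ± 3.21 in striatum, and Pvalb interneurons 69.7% ± 5.01 Cacng2. Layer 2/3 neurons were 58.2% ± 6.73 Cacng3, whereas layer 6 corticothalamic neurons were 48.1% ± 3.48 Cacng2 and 25.6% ± 5.64 Cacng3. Spiny projection neurons split into 36.02% ± 6.57 Cacng4, 33.5% ± 7.74 Cacng3 and 20.1% ± 1.82 Cacng2. Eccentric spiny neurons had 22.3% ± 6.15 Cacng5. Astrocytes had a mixed set, with 34.4% and 41.7% Cacng7 and 26.1% and 14.1% Cacng8 in cortex and striatum, from a small TARP total of 91.7 ± 21.5 and 78.9 ± 13.9 CPM. The oligodendrocyte precursors had the largest TARP totals, 1306 ± 208 and 1014 ± 158 CPM, beside Gria totals of 1802 ± 383 and 1618 ± 560.0.

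**Figure D3:**
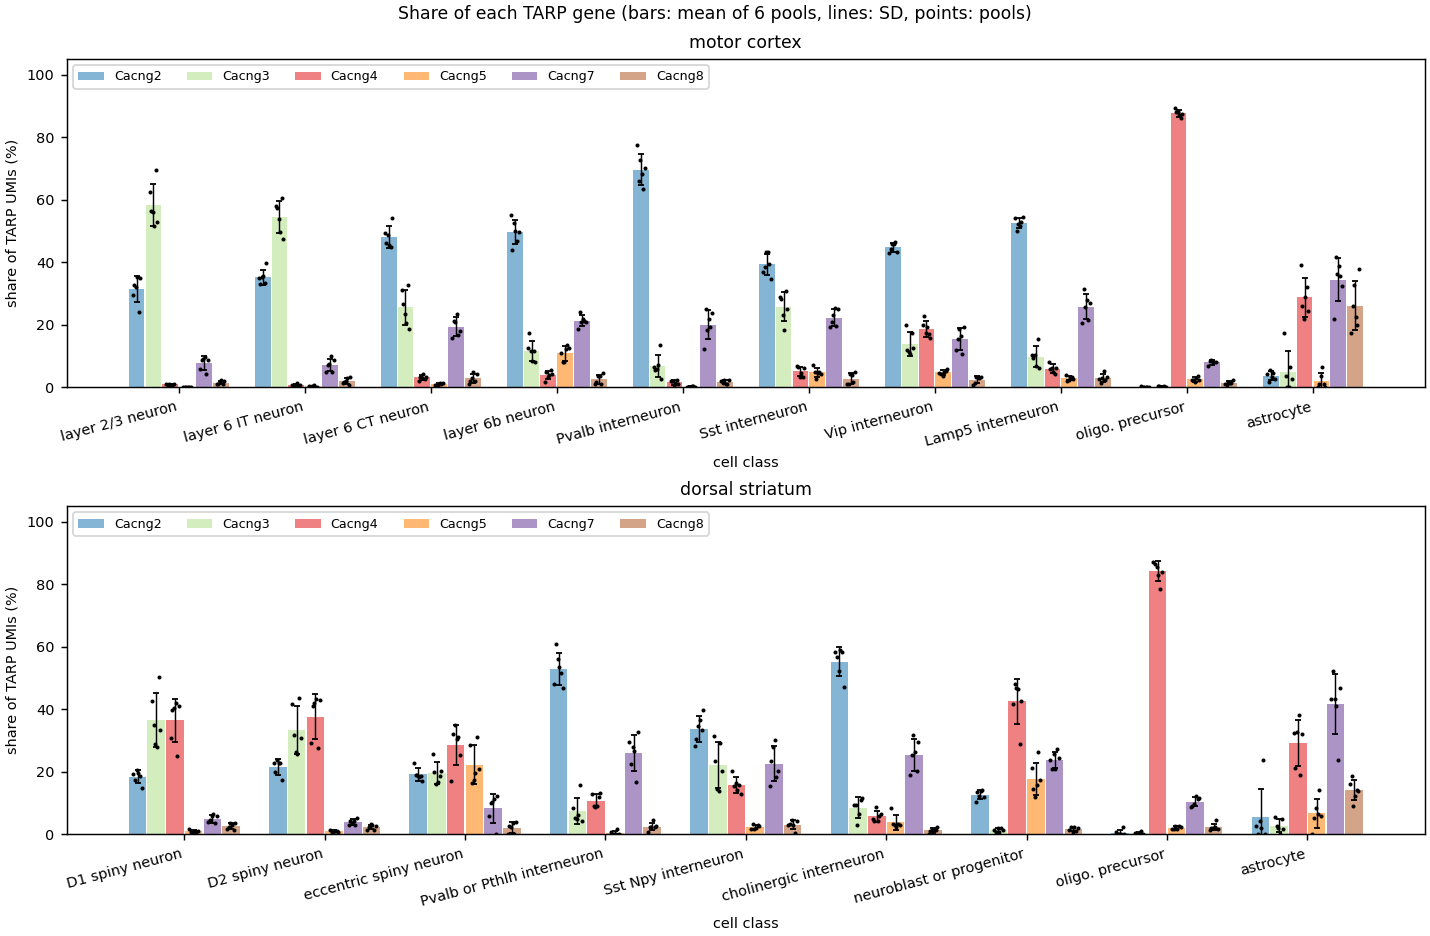
Share of each TARP gene among the UMIs of the 6 TARP genes, in percent, by class in motor cortex (top) and dorsal striatum (bottom). Bars are means of 6 pools, lines the SD and points the pools. Cacng4 takes 87.7% of the total in cortical oligodendrocyte precursors, Cacng2 69.7% in Pvalb interneurons and Cacng3 58.2% in layer 2/3 neurons.

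Differences in level between classes of the same pools were tested with edgeR's quasi-likelihood test with the pool as a block, fitted over all genes and adjusted by Benjamini-Hochberg, and called at an adjusted p under 0.05. Over 12 pairs there were 107 tests of the 10 genes, and 83 were called. Large shares of all genes were called too, from 23.1% (D1 against D2 spiny neurons) to 85.1% (spiny projection neurons against neuroblasts or progenitors). Nothing is read from the count over all pairs, and the share of all genes is given beside the count of each pair. Between cortical glutamatergic and GABAergic neurons 67.9% of all genes were called, and 9 of the 10. Gria3 (1.27 ± 0.06, SE, on the log2 scale, adjusted p = 2.2e-17), Gria2 (0.77 ± 0.05) and Cacng3 (1.37 ± 0.06) were higher in glutamatergic neurons. Gria1 (-0.57 ± 0.06), Cacng2 (-0.66 ± 0.05), Cacng4 (-2.95 ± 0.09), Cacng5 (-2.85 ± 0.14), Cacng7 (-1.08 ± 0.06) and Cacng8 (-0.64 ± 0.11) were lower. Gria4 was not called (-0.04 ± 0.06, adjusted p = 0.488).

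Between spiny projection neurons and striatal GABAergic interneurons 74.7% of all genes were called, and again 9 of the 10. Spiny projection neurons had more Cacng4 (1.83 ± 0.08, adjusted p = 5.53e-20), Cacng3 (1.41 ± 0.07), Cacng5 (1.31 ± 0.18), Gria2 (1.22 ± 0.06) and Gria3 (1.06 ± 0.06). They had less Cacng7 (-1.89 ± 0.07), Gria4 (-1.76 ± 0.07, adjusted p = 1.16e-21) and Cacng2 (-0.74 ± 0.07), and slightly less Gria1 (-0.19 ± 0.05, adjusted p = 0.00245), a call that was lost when low-count genes were kept in the fit (-0.07, adjusted p = 0.453). Cacng8 was not called (0.24 ± 0.14, adjusted p = 0.117), but was in that fit (0.36, adjusted p = 0.0322). So Cacng3 was on the projection neurons' side in both regions, Cacng2 and Cacng7 on the interneurons', and Cacng4 and Cacng5 on opposite sides. The spiny class was uneven in Cacng5. By the levels above, its D1 and D2 neurons held far less than its cluster led by Otof and Casz1. The D1 and D2 neurons were not tested against the interneurons.

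Subtypes of the same class differed as well. Layer 2/3 neurons had 277 CPM of Cacng3 against 62.4 in layer 6 corticothalamic neurons (2.06 ± 0.05, adjusted p = 9.21e-46), and more Gria4 (0.56 ± 0.06), Cacng2 (0.24 ± 0.04) and Gria3 (0.18 ± 0.04). They had less Gria1 (-0.46 ± 0.04), Cacng4 (-0.92 ± 0.17) and Cacng7 (-0.48 ± 0.07). Cacng5, called lower, passed the filter through the corticothalamic cells, with 98 UMIs there and 23 in layer 2/3 (2.33 against 0.786 CPM). With it, 8 of 10 were called where 63.8% of all genes were, and again nothing is read from the count. Gria2 (0.04 ± 0.04, adjusted p = 0.334) and Cacng8 (-0.14 ± 0.15, adjusted p = 0.416) were not. Pvalb interneurons had more Cacng2 than Sst interneurons (0.94 ± 0.09, adjusted p = 1.54e-11) and more Gria4 (0.78 ± 0.13). They had less Cacng3 (-1.75 ± 0.15) and Gria3 (-0.42 ± 0.11), though the Gria3 call was lost without the control pool numbered 2 (-0.31, adjusted p = 0.0701). Cacng4 and Cacng5 were called lower and passed the filter through the Sst cells. Cacng4 had 27 UMIs in all Pvalb and 105 in all Sst interneurons (7.88 against 22.4 CPM). Cacng5 had 3 UMIs in all Pvalb interneurons, a mean of 0.794 CPM against 21.1 in Sst interneurons. Cacng8, with 27 UMIs in all Pvalb and 57 in all Sst interneurons, also passed the filter in Sst cells alone but not in Pvalb cells alone. There 6 of 10 were called, where 33.9% of all genes were. Because Cacng4, Cacng5 and Cacng8 entered through 1 class, the count is not read against that share. Gria1 (0.13 ± 0.08, adjusted p = 0.225), Gria2 (-0.08 ± 0.07, adjusted p = 0.469), Cacng7 (0.05 ± 0.12, adjusted p = 0.804) and Cacng8 (-0.51 ± 0.37, adjusted p = 0.310) were not called.

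D1 spiny neurons, which project directly to the basal ganglia outputs, and D2 spiny neurons, which project indirectly, were close to each other. Of the 10 genes 3 were called, where 23.1% of all genes were, all lower in D1 cells. Cacng2 stood at 75.7 ± 11.04 CPM in D1 and 95.8 ± 13.8 in D2 cells (-0.41 ± 0.04, adjusted p = 2.54e-09). Cacng4 differed by -0.24 ± 0.04 and Gria3 by -0.18 ± 0.04 (adjusted p = 0.000406). Gria1 (-0.03 ± 0.03), Gria2 (-0.03 ± 0.02), Gria4 (0.16 ± 0.07), Cacng3 (-0.05 ± 0.04), Cacng5 (-0.31 ± 0.18), Cacng7 (0.17 ± 0.09) and Cacng8 (-0.05 ± 0.11) were not called.

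Spiny projection neurons differed from striatal neuroblasts or progenitors, cells of the nearby neurogenic zone, in all 10 genes, where 85.1% of all genes were called. The gaps were widest for Gria3 (6.20 ± 0.14, adjusted p = 6.97e-18), Cacng3 (5.98 ± 0.15) and Gria1 (4.50 ± 0.10), and narrower for Gria2 (2.55 ± 0.12), Cacng2 (1.94 ± 0.13), Cacng8 (1.83 ± 0.21), Gria4 (1.72 ± 0.15) and Cacng4 (1.08 ± 0.10). Cacng5 (-1.34 ± 0.11) and Cacng7 (-0.92 ± 0.09) were higher in the neuroblasts. Within the neuroblast clusters the Gria2 level went from 49.3 ± 11.2 CPM in the cluster led by Tead2 and Thrsp, with the progenitor gene Egfr among its leaders, to 594 ± 173 in the cluster with Dcx, a gene of migrating neuroblasts, among its leaders (6 pools each, not tested). Cacng4 went from 7.57 ± 8.02 to 202 ± 43.9 CPM in the same clusters.

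Among glia, 3 pairs were compared in each region. Oligodendrocyte precursors had more Cacng4 than astrocytes (5.31 ± 0.16 in cortex, adjusted p = 1.98e-38, and 4.90 ± 0.13 in striatum) and more Cacng7 (1.53 ± 0.15 and 1.36 ± 0.13). Gria3 and Gria4 were called higher in precursors too, but the astrocytes were near 0 for them. Gria4 stood at 99.1 and 111 CPM in precursors and at 1.25 and 2.18 in astrocytes, from 5 and 6 UMIs, so the size of that gap is not given as a fold. Gria3 stood at 271 and 265 against 8.62 and 4.06 CPM (37 and 29 UMIs), and Cacng5 at 32.4 and 21.7 against 1.88 and 5.35 (7 and 35 UMIs). Cacng8 was lower in cortical precursors (-0.56 ± 0.21, adjusted p = 0.0186) and higher in striatal ones (0.74 ± 0.22, adjusted p = 0.00430). The cortical call was lost under DESeq2 (-0.51, adjusted p = 0.109), the stricter cell filter and without either of 2 pools, and the striatal one with the Grin2c-led astrocytes alone (adjusted p = 0.0625 by the exact test). Gria1 was called in striatum and not in cortex (0.11 ± 0.21, adjusted p = 0.664 in cortex, and 1.54 ± 0.22, adjusted p = 9.09e-08 in striatum), though with clusters made with the members the striatal value was 0.14 (adjusted p = 0.638). Cacng2, tested in striatum, was not called (-0.24 ± 0.62, adjusted p = 0.760), but was with doublets kept, with the sign turned (0.85, adjusted p = 0.0435). In these fits 8 and 9 of the 10 genes passed the filter on low counts, 7 and 8 were called, and 65.3% and 62.2% of all genes were called. A gene can pass that filter through 1 of the 2 classes, so that these counts do not stand for all members. Gria2 went opposite ways: precursors had less of it than astrocytes in cortex (-0.85 ± 0.11, adjusted p = 1.58e-09) and more in striatum (0.76 ± 0.09, adjusted p = 1.75e-09). Oligodendrocyte precursors also had more Cacng4 than committed ones (1.83 ± 0.14 and 2.03 ± 0.09), more Gria3 (1.81 ± 0.14 and 1.70 ± 0.13) and more Gria4 (0.79 ± 0.14 and 0.68 ± 0.13). Gria1, called higher too, passed the filter through the precursors, with 311 and 195 UMIs there and 12 and 19 in committed precursors, means of 26.1 and 31.9 against 3.09 and 7.57 CPM. As a share of the projection neurons' level, the neuronal list was 8.91% in cortical precursors and 3.21% in committed ones, where Gria1 was 16.1% and 1.91%. Single list genes ran from 1.65% to 3087% and from 2.49% to 251% there. In striatum the list was 10.6% and 1.96% (single genes 3.33% to 19.1% and 0.917% to 15.2%), where Gria1 was 8.89% and 2.11%. Gria2 was higher in cortex (0.43 ± 0.10, adjusted p = 0.000616) but without a call in striatum (0.15 ± 0.08, adjusted p = 0.0891), where RLE factors (adjusted p = 0.0408) and the fit with no filter (0.0446) did call it. Cacng5 and Cacng8, called higher in precursors, had 6 and 3 UMIs in cortical committed precursors and 3 and 5 in striatal ones, against 377 and 218 and 143 and 140 in precursors. Of the 8 members tested there, 7 and 6 were called, where 56.3% and 57.4% of all genes were, and with Gria1, Cacng5 and Cacng8 entering through 1 class nothing is read from these counts. Cacng7 was called in neither region (-0.12 ± 0.12, adjusted p = 0.457, and 0.19 ± 0.13, adjusted p = 0.217).

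The mature oligodendrocytes were too few for a test, and the 2 cortical and 4 striatal pools with at least 20 of them held 54.9 ± 34.6 and 51.0 ± 31.5 CPM of Gria2. Astrocytes exceeded microglia in Gria2 by 6.14 ± 0.21 in cortex and 3.75 ± 0.44 in striatum, where 78.6% and 75.6% of all genes were called. Of the 6 and 8 members tested, 5 and 5 were called. Cacng4, Cacng7 and Cacng8 passed the filter in astrocytes alone but not in microglia alone, and striatal Gria3, Cacng2 and Cacng5 in neither class alone, so neither that count nor its direction is read against those shares. Cacng4 was called higher in astrocytes (2.38 ± 0.30 and 1.52 ± 0.36). With likely doublets kept, the striatal Cacng4 call was lost (0.05, adjusted p = 0.818), and Gria3 (-1.99), Gria1 (-1.68) and Cacng2 (-1.46) were called lower in astrocytes. Cacng8 had 3 UMIs in all cortical microglia and 2 in striatal ones, against means of 23.8 and 10.9 CPM in astrocytes, and Cacng7 24 and 11 UMIs, against 30.7 and 33.1 CPM. Gria1 was called in cortex (1.47 ± 0.29, adjusted p = 1.36e-05) and not in striatum (-0.52 ± 0.32, adjusted p = 0.157), and Cacng5, tested in striatum, stood at 5.35 CPM in astrocytes and at 4 UMIs in microglia. Gria3 was called in neither region (0.15 ± 0.36, adjusted p = 0.711, and -0.75 ± 0.41, adjusted p = 0.109), nor Cacng2 in striatum (-0.74 ± 0.61, adjusted p = 0.281). The genes that failed the filter in these glial fits were Cacng3 in all 6, Cacng2 in 4 of them, and Gria4 and Cacng5 in fits of astrocytes against microglia.

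The striatal astrocytes were made up of 2 clusters, and the tests on each alone were chosen after the data were seen. A cluster of 2110 cells led by Grin2c and Gjb6 held 885 ± 268 CPM of Gria2 (502 at the lowest pool, 1150.0 at the highest). A cluster of 1045 cells led by Thbs4 and Gfap held 101 ± 22.5 (65.9 to 130.4), so the 2 did not overlap. The cortical astrocytes were 1 cluster, led by Etnppl and Gjb6. With the Grin2c cluster alone, striatal oligodendrocyte precursors still had more Gria2 than astrocytes in 6 of 6 pools, by 0.43 ± 0.16 on the scale log2(CPM + 1) (SD, exact sign-flip permutation p = 0.03125, adjusted over 12 such tests to 0.0354). Cortical astrocytes still exceeded them in Gria2, by 1.30, without overlap (exact permutation of 6 against 6 pools, p = 0.002165, adjusted p = 0.00866).

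Between regions, projection neurons were compared as cortical glutamatergic against striatal spiny projection neurons, with stage and barcode group as covariates, and 66.2% of all genes were called and 9 of the 10. Cacng4 differed most (-4.81 ± 0.09, adjusted p = 9.36e-15), from 5.17 CPM in cortex to 149 in striatum, followed by Cacng5 (-1.89 ± 0.19) and Gria1 (-1.13 ± 0.06). The Cacng5 difference is for the spiny class as a whole, whose D1 and D2 neurons held far less than its cluster led by Otof and Casz1. Cortical neurons had more Cacng7 (1.08 ± 0.08), Gria4 (0.97 ± 0.09), Cacng2 (0.72 ± 0.08) and Gria3 (0.44 ± 0.07), less Cacng8 (-0.66 ± 0.13) and slightly less Gria2 (-0.32 ± 0.08, adjusted p = 0.00347). The Gria2 and Gria3 calls were lost without the barcode group as a covariate (adjusted p = 0.0588 and 0.0567). Cacng3 was not called (0.00 ± 0.09, adjusted p = 0.963), at 137 ± 33.99 and 139.6 ± 34.6 CPM. Within the 2 batches that hold pools of both regions (early and late pools numbered 2), the difference on the scale log2(CPM + 1) was -4.71 and -4.44 for Cacng4, -1.18 and -1.07 for Gria1, -0.47 and -0.23 for Gria2 and 0.61 and 1.02 for Cacng2.

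GABAergic interneurons differed between regions in 4 of the 10, against 32.9% of all genes. Cacng5 was higher in cortex (2.21 ± 0.18, adjusted p = 1.39e-08), as was Cacng2 (0.59 ± 0.09), and Gria4 (-0.80 ± 0.11) and Gria1 (-0.79 ± 0.08) were lower. Gria2 (0.07 ± 0.10), Gria3 (0.18 ± 0.10), Cacng3 (0.01 ± 0.12), Cacng4 (-0.09 ± 0.10), Cacng7 (0.21 ± 0.10) and Cacng8 (0.14 ± 0.20) were not called. Within the same 2 batches Cacng5 differed by 2.30 and 2.11 and Gria1 by -0.70 and -0.68. The classes hold different subtypes in the 2 regions, Lamp5, Vip, Sst and Pvalb cells in cortex and Pvalb or Pthlh and Sst Npy cells in striatum. The cortical class also holds 905 cells in 6 unnamed sub-clusters, the one with the most cells (301) led by Pou3f4 and Pthlh, and the striatal class 642 unnamed cells, 399 of them led by Gal and Trh. A cortical cluster of 718 cells, with Vip among its leading genes, stayed unnamed and outside the class. Of 5 members tested in astrocytes 3 were called, against 29.5% of all genes: Gria2 (1.90 ± 0.15, adjusted p = 1.65e-10), Gria1 (1.32 ± 0.35) and Cacng8 (1.04 ± 0.28), all higher in cortex. Within the 2 batches Gria2 differed by 1.57 and 1.68, and over all pools by 1.30 with the Grin2c-led striatal cluster alone, on the scale log2(CPM + 1). Cacng4 (-0.06 ± 0.23) and Cacng7 (-0.17 ± 0.18) were not called, and the Cacng8 call was lost without the late striatal pool numbered 2 (0.87, adjusted p = 0.0542). Beside this, the neuroblast marker sum was 104 CPM (84.2 to 145.3) in cortical and 529 (389.5 to 954) in striatal astrocytes, with 1 of its 9 genes at 0 in cortex, and the neuronal list stood at 248.5 to 1058 and 486.6 to 2409 CPM. Their part in the result was not tested. Cortical astrocyte Gria1 was 16.1% of the glutamatergic level where the neuronal list was at 2.40%, and striatal astrocyte Gria1 was 2.40% of the spiny level where the list was at 5.87%. Single list genes ran from 0.985% to 277% in cortical and from 1.17% to 50.1% in striatal astrocytes.

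Oligodendrocyte precursors had the fewest calls of the 4 comparisons between regions. By edgeR's quasi-likelihood test 0 of 8 members were called, where 2.05% of all genes were, 3 members had an unadjusted p under 0.05, and DESeq2 called 1, Cacng4. Cacng4 differed by 0.41 ± 0.12 (edgeR adjusted p = 0.0960, DESeq2 adjusted p = 0.0264), and Gria2 by 0.27 ± 0.13 (adjusted p = 0.442). By edgeR Cacng4 was called with no filter on low counts (0.45, adjusted p = 0.0162) and with doublets kept (0.49, adjusted p = 0.0219), where Gria1 was called too (-0.88, adjusted p = 0.00323). The other differences were -0.25 ± 0.17 for Gria1, 0.06 ± 0.12 for Gria3, -0.17 ± 0.12 for Gria4, 0.51 ± 0.19 for Cacng5, -0.06 ± 0.12 for Cacng7 and -0.31 ± 0.20 for Cacng8.

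**Figure D4:**
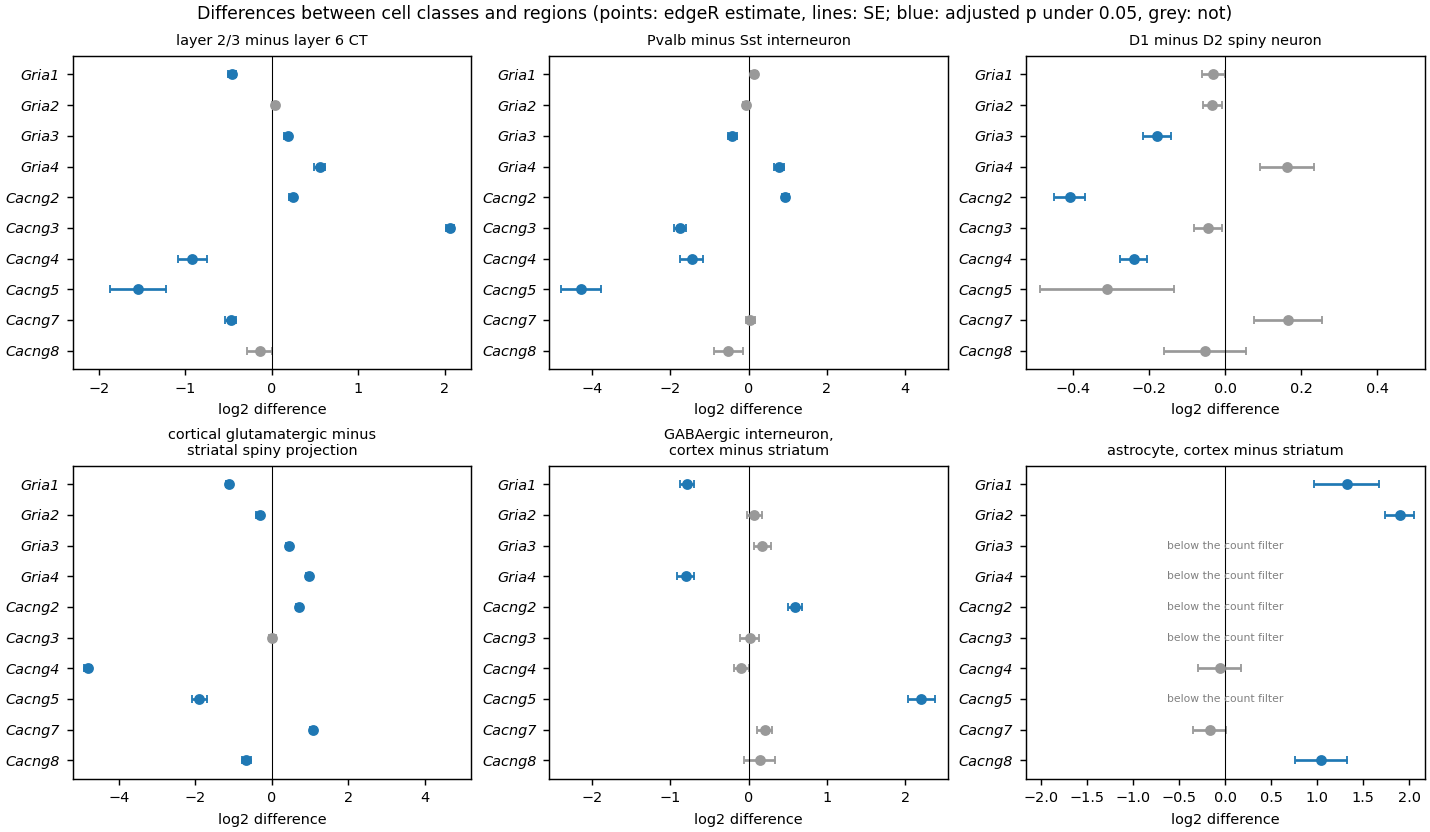
Log2 differences of the 10 genes in 3 pairs of neuron subtypes (top) and 3 comparisons of cortex with striatum (bottom), as edgeR estimates (points) with their SE (lines), blue where the adjusted p is under 0.05 and grey where not. The Cacng3 point for layer 2/3 against layer 6 corticothalamic neurons lies at 2.06, the Cacng4 point for glutamatergic against spiny projection neurons at -4.81, and no D1 against D2 point passes -0.41.

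No training stage difference of the 10 genes was called. In 36 classes and subtypes, with 3 contrasts each where the gene was tested, edgeR called 0 of 714 member tests and DESeq2 also called 0, while 60 (8.40%) had an unadjusted p under 0.05, against 4.85% of all gene tests. That share was 15% of member tests in the striatal classes (6.11% of all gene tests), 7.09% in the striatal subtypes (6.51%), 6.52% in the cortical classes (3.29%) and 4.05% in the cortical subtypes (3.7%). Among all genes the called share was 0.0229% in the striatal classes, 0.13% in the striatal subtypes, 0.0348% in the cortical classes and 0.00304% in the cortical subtypes. With 2 pools a group, and 2 residual degrees of freedom in each fit, a small change could not be detected, and larger ones could go uncalled too. Because the contrasts use the same pools, they do not count as separate evidence. A fit with the labelled batch as a term leaves no residual degrees of freedom, so the ratios of the pools that share a batch are given without a test.

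In spiny projection neurons Gria2 stood at 1054 and 1559 CPM in the 2 control pools, 1719 and 1575 in the early and 832 and 1334 in the late ones. The first control and first late pool, both of barcode group A, were lowest. Both early pools, which are of group B, lay above both control and both late pools, and the control and late ranges overlapped. With the barcode group in the model the late against early difference was -0.32 ± 0.13 (adjusted p = 0.484) and late against control -0.25 ± 0.12 (adjusted p = 0.818). Within their batches, late pool 1 stood at -0.34 from control pool 1 and early pool 1 at 0.14 from control pool 2, as log2 ratios. Gria1 stood at 294 and 397 in control, 413 and 397 in early and 266 and 386 in late pools. Cacng2 stood at 99.05 and 79.9, 92.5 and 81.9 and 82.98 and 66.8 (late against early -0.38 ± 0.12, adjusted p = 0.481), with overlapping ranges. For the other members late against control ran from -0.23 to 0.08 and early against control from -0.32 to 0.22, with no call.

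In cortical glutamatergic neurons no stage difference of a member was called either. Gria2 stood at 942 and 1132 CPM in control, 1056 and 1138 in early and 802 and 1140.4 in late pools, and Gria1 at 126 and 183, 185 and 175 and 119 and 184. Each stage that had a group A pool had its lower value there. Within batches the Gria2 log2 ratio was -0.23 for late and -0.10 for early pools. Cacng3 stood at 179 and 147 in control, 125 and 106 in early and 171 and 96.6 in late pools, here with the group A pools on top (late against control -0.31 ± 0.17, adjusted p = 0.858). For the other members late against control ran from -0.22 to 0.80, with no call. Group A lay below group B in all 6 neuron classes compared for Gria1, Gria2 and Cacng7, and above it in 4 of 6 for Cacng3. In cortical astrocytes Gria2 stood at 1838 and 2771, 2313 and 2007 and 1688 and 2077, again without separation of the stages.

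The smallest adjusted p of a stage test was that of Cacng4 in striatal neuroblasts or progenitors, late against control (-0.71 ± 0.14, adjusted p = 0.0862). This class joins clusters with very different Cacng4 levels, given above. Whether the mix of clusters differed between pools was not tested. The pools stood at 51.7 and 106 CPM in control, 85.8 and 93.4 in early and 29.4 and 67.6 in late mice, so the control and late ranges overlapped while within each barcode group the late pool was the lower. Within the batch of the pools numbered 1 the late against control log2 ratio was -0.79. It was called with no filter on low counts, a fit of all 6 pools (-0.71 ± 0.16, adjusted p = 0.00200), in group B alone (-0.61, adjusted p = 0.0209) and with either group A pool left out. The fits with fewer pools hold 1 pool in the control arm, the late arm or both, which is assumed to vary as the other pools do. Cacng4 in striatal oligodendrocyte precursors, at 918 and 880.0 CPM in control, 969 and 896 in early and 549.7 and 924 in late pools, was called lower in late than control pools only without control pool 2 (-0.75, adjusted p = 0.00476) or late pool 2 (-0.75, adjusted p = 0.00431), and lower than in early pools without late pool 2 (-0.83, adjusted p = 0.0363). Each of these fits has 1 pool in an arm, again assumed to vary like the others, and without late pool 2 the late arm is the pool at 549.7 CPM alone.

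**Figure D5:**
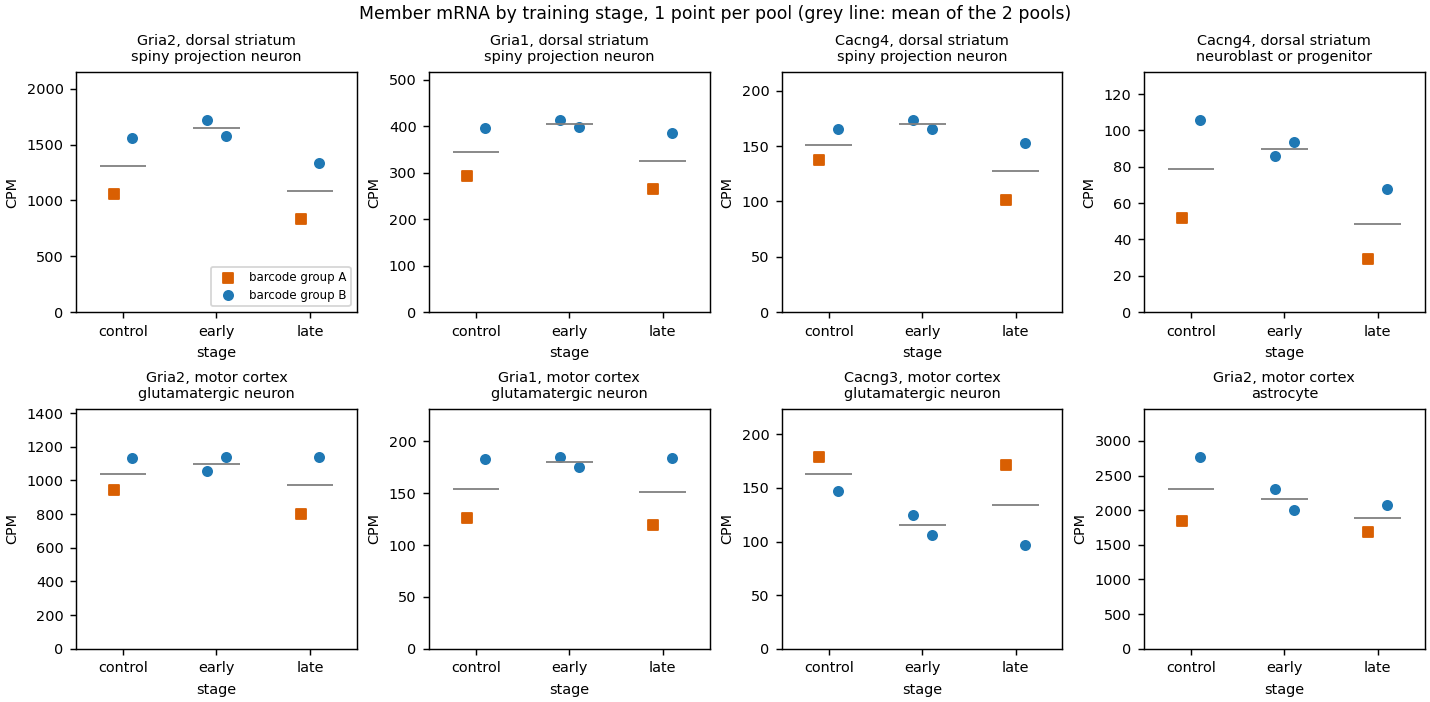
Levels in CPM of 8 gene and class combinations by training stage, 1 point per pool with a grey line at the mean of the 2 pools, orange squares for barcode group A and blue circles for group B. Early pools are all of group B, and in the 7 panels for Gria1, Gria2 and Cacng4 the group A pool is the lower of its stage, while in the Cacng3 panel it is the higher.

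Whether stage effects differed between the regions was tested in GABAergic interneurons, astrocytes and oligodendrocyte precursors. Of 46 member tests edgeR and DESeq2 each called 0, edgeR gave 2 with an unadjusted p under 0.05, and 0.00272% of all tests were called. The hemispheres labelled contralateral and ipsilateral were compared within pools, using the 4 early and late pools per region, and edgeR called 0 of 10 in glutamatergic neurons and 0 of 10 in spiny projection neurons, and DESeq2 called 0 in both. The called shares of all genes were 0.0377% and 0.0128%. In each class 1 member had an unadjusted p under 0.05, Cacng5 both times (contralateral minus ipsilateral -0.40 ± 0.18, adjusted p = 0.801 in glutamatergic neurons, and -0.34 ± 0.13, adjusted p = 1.0 in spiny projection neurons).

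The other genes known to act on AMPA receptors were taken as 3 lists, given here by counts and medians beside the share of all genes called in the same direction. A further list held 2 gamma subunits that are not TARPs. They passed the filter on low counts in few comparisons: 0 of 2 were tested between glutamatergic and GABAergic neurons, and 1 of 2 between spiny projection neurons and striatal GABAergic interneurons, where it was higher (4.87). Of 16 further auxiliary and assembly genes (Cnih2, Cnih3, Shisa6 and others), 15 were tested between glutamatergic and GABAergic neurons, 11 were higher and 3 lower, with a median difference of 0.68 against -0.03 over all genes, of which 33.8% were higher and 34.1% lower. The largest were Gsg1l (2.44, higher in glutamatergic neurons), Shisa9 (-1.92) and Shisa6 (-1.88). Of 12 pentraxins and scaffolds, proteins that gather receptors at synapses, 7 were higher and 2 lower (median 0.36), led by Nptx1 (4.60), Grip1 (-2.85) and Nptx2 (2.81). The third list held 3 genes of the ADAR family, Adar, Adarb1 and Adarb2. All 3 were lower in glutamatergic neurons than in GABAergic interneurons, as were those 34.1% of all genes (median of the 3, -0.70). Editing itself was not measured, and these levels do not stand for it.

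Between spiny projection neurons and striatal GABAergic interneurons 38.5% of all genes were higher and 36.2% lower, with a median of 0.04. The auxiliary list had 10 higher and 4 lower of 15 (median 0.68), led by Olfm2 (-4.34), Shisa6 (-4.10) and Olfm1 (-3.83), and the scaffold list 7 higher and 5 lower of 12 (median 0.39), led by Nptx2 (3.57), Akap5 (3.04) and Grip2 (-2.31). Oligodendrocyte precursors had 12 of 14 auxiliary genes higher than astrocytes in cortex and 11 of 14 in striatum (34.1% and 31% of all genes, list medians 1.72 and 1.76), with Shisa7 (4.78 and 5.003) and Olfm2 (3.80 and 5.97) among the largest in both. They had 10 of 14 and 9 of 12 higher than committed precursors (29.2% and 30.3% of all genes, list medians 1.61 and 1.34). In these pairs, as in the others, a gene can pass the filter on low counts through either class alone. The list counts are therefore not read against the shares of all genes. In layer 2/3 against layer 6 corticothalamic neurons the auxiliary list split into 7 higher and 5 lower (31.2% and 32.6% of all genes, list median 0.06), with Olfm3 (-3.10), Shisa6 (-2.26) and Cnih3 (-2.14) the largest, and the scaffold Nptxr was higher in layer 2/3 (4.49). Between the regions' projection neurons Olfm1 (5.66), Olfm2 (3.83), Cnih3 (2.76), Nptx1 (4.51) and Nptxr (3.47) were higher in cortex and Akap5 (-2.04) in striatum, where 32.6% of all genes were higher in cortex and 33.6% in striatum. No gene of these lists was called between training stages by edgeR.

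The genes whose mean log2 CPM over the 25 named classes followed a member most closely (Pearson r, across classes that share pools and depth, among 11695 genes) were Nrcam (0.967) and Pcdh9 (0.965) for Gria2, Ndrg4 (0.966) and Scg2 for Gria1, Arhgap20 (0.919) for Gria3 and Atcay (0.967) for Gria4. For the TARPs they were Carmil2 (0.972) for Cacng2, Hrh3 (0.945) and Gpr12 (0.944) for Cacng3, Vcan (0.914) for Cacng4 and Tram1l1 (0.949) and Map2 (0.947) for Cacng7. Cacng8 reached 5 on the log2 scale in no class. Among the members the closest pair was Gria1 and Cacng2 (0.883), then Gria1 and Cacng3 (0.880), and the lowest of all pairs was Cacng2 with Cacng4 (0.106).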

How the data were processed

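Single-cell 3' RNA-seq counts from 24 libraries were used, 23 of them with a matrix. The authors deposited UMI counts per gene and barcode, made with Cell Ranger 3.1.0 on GRCm38 (mm10) per the submitters' processing notes, the matrices' own header line gives 3.0.2 as the software version, and the annotation used is not given in the sources used here. From these, cells with at least 500 genes and 1000 UMIs and at most 20% mitochondrial UMIs were kept (103715 of 127901 barcodes), and 5103 likely doublets were removed (the highest scores of the scrublet function of scanpy 1.11.5, 0.8% per 1000 barcodes), which left 98612 cells. Each region was clustered (2000 variable genes without the 10 members and related lists, 40 components, 20 neighbours, Leiden resolution 1.5, leidenalg 0.10.2), and clusters of at least 30 cells were named from markers, at least 3 of which had to be found. Counts were summed per pool and class, with at least 20 cells in each of the 6 pools, and converted to CPM. Replicates are pools of animals. Their numbers were given in accession order and follow the labelled batches only in part: in each region control 1 shares a batch with late 1, and control 2 with early 1. Batch was not a term in any fit, and within-batch values are given without a test.

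Differences were tested with edgeR 4.0.16, by its quasi-likelihood test after filterByExpr and with TMM factors (p-values adjusted by Benjamini-Hochberg over all genes, threshold 0.05), with the pool as a block between classes and hemispheres, and the barcode group as a covariate between stages and regions. The kit version of a library was inferred only as this barcode group. The edgeR fit was tried on simulated counts for spiny projection neurons, late against control, and for D1 against D2 spiny neurons, and not for the other designs. Shares were compared by exact sign-flip tests. Alternatives were DESeq2 1.42.0, RLE factors, no filter on low counts, a stricter cell filter (1000 genes, 2000 UMIs, 10% mitochondrial), doublets kept, clusters made with the members, no barcode group, group B alone, a replicate block, and each pool left out. The comparison of oligodendrocyte precursors with mature oligodendrocytes was replaced by committed precursors because pools held too few mature cells. All 10 members are named in every comparison of classes and regions where they passed the filter, and as values or ranges between stages in projection neurons, with other stage, region-by-stage and hemisphere tests as counts. Other lists are given by counts and by the 3 called genes with the largest difference, and genes of like pattern from the 3 highest correlations, not all of which are reported here. The members and lists were chosen with earlier results of these data known. UMI counts are not independent of capture efficiency, and intervals and floors cover counting error only.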

Additional observations from a re-analysis of the deposited data

Results flagged for a closer look

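The levels of 2 pools stood apart from the other 5 of their class and region. Cacng4 in striatal oligodendrocyte precursors was 550.0 CPM in the late pool numbered 1, where the nearest pool had 880.0. Cacng4 in cortical astrocytes was 48.1 CPM in the control pool numbered 1, where the nearest had 29.7. These are 2 of 89 groups examined, of which chance alone flags about 1 in 20.

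In 5 cases a difference between 2 glial classes was itself different in the 2 regions, by an exact two-sided permutation of 6 cortical against 6 striatal pools (924 arrangements, 22 tests). On the scale log2(CPM + 1), oligodendrocyte precursors minus astrocytes gave -0.60 ± 0.25 (SD) for Gria2 in cortex and 1.04 ± 0.18 in striatum, with opposite signs in every pool, a gap of -1.64 (exact permutation p = 0.002165, the smallest possible, adjusted p = 0.0119). For Gria1 the same differences were 0.15 ± 0.81 and 1.90 ± 0.65, a gap of -1.76 (adjusted p = 0.0119 by the same exact test). With clusters made with the members the gap was not recomputed, but edgeR's striatal difference was 0.14 (adjusted p = 0.638) in place of 1.54, beside 0.12 in cortex. For Cacng8 they were -0.34 ± 0.33 and 0.98 ± 0.50, a gap of -1.31 (adjusted p = 0.0119 by the same exact test). Astrocytes minus microglia gave 6.84 ± 0.70 in cortex (5.41 to 7.21) and 4.45 ± 1.59 in striatum (1.36 to 5.52) for Gria2, a gap of 2.39 (exact permutation p = 0.006494, adjusted p = 0.0286). For Gria1 they gave 2.13 ± 0.94 and 0.06 ± 0.78, a gap of 2.07 (adjusted p = 0.0119 by the exact test), and with those clusters edgeR gave 1.47 in cortex and 0.74 in striatum. With the Grin2c-led striatal astrocytes alone, chosen after the data were seen, striatal precursors minus astrocytes gave 0.43 for Gria2 in place of 1.04. The gap was not recomputed. In microglia the neuronal list stood at 253.4 to 618.6 CPM in cortical and 196.5 to 1896 in striatal pools, and its part was not tested. The astrocyte pools enter all 5 cases, so these are not independent of one another.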

How the results depend on the processing

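Between training stages the count of member calls within cell classes was 0 under RLE factors, DESeq2, doublets kept, no barcode group and the stricter cell filter, 4 with no filter on low counts (1 of them Cacng4 in striatal neuroblasts, late against control), 5 in group B alone, and 0 to 6 with 1 pool left out, the 6 without the striatal early pool 2. In group B alone and with a pool left out, an arm of 1 pool is assumed to vary like the others. The shares of all genes called under these alternatives are not given here, so nothing about the members is read from these counts. The replicate block in place of the barcode group gave 1 call, Gria2 in striatal endothelial cells. Pools of 1 number share a labelled batch in control and late (number 1) but not throughout, so the block is not a batch correction. In neuron subtypes every alternative gave 0 by edgeR or DESeq2. The cause of these changes was not tested. Share calls went from 35 of 48 to 23 of the 36 tests that kept 6 pools under the stricter cell filter, and with 5 or 4 pools the exact test cannot reach the threshold. Calls between classes ran from 63 (stricter filter) to 90 (doublets kept) against 83, and between regions from 13 to 20 against 16. The number of tests behind these counts was not the same under every alternative, so they are not rates. Of the members, 2 uncalled differences changed sign and were called: Cacng2 between striatal oligodendrocyte precursors and astrocytes with doublets kept (0.85) and Gria1 between striatal astrocytes and microglia with clusters made with the members (0.74). With those clusters Gria1 was not called between striatal oligodendrocyte precursors and astrocytes (0.14, adjusted p = 0.638). Cacng8 between cortical oligodendrocyte precursors and astrocytes was lost under DESeq2 (adjusted p = 0.109), under the stricter filter (0.0656) and without the early pool 1 (0.0677) or the control pool 2 (0.0982), and Gria3 between Pvalb and Sst interneurons under DESeq2 (0.0521). Calls appeared for Gria2 (adjusted p = 0.00515) and Cacng7 (0.0454) between striatal oligodendrocyte precursors and committed precursors without the early pool 1, for that Gria2 difference also under RLE factors (0.0408) and with no filter on low counts (0.0446), for Gria4 between D1 and D2 neurons without the late pool 2 (0.0268), and for Gria1 between Pvalb and Sst interneurons without the late pool 1 (0.0148) and in group B alone (0.00334). With the Grin2c-led striatal astrocytes alone, chosen after the data were seen, oligodendrocyte precursors were higher in Cacng8 in 5 of 6 pools, without a call (0.74, adjusted p = 0.0625 by the exact test). Low counts limit the comparisons in which a class holds few UMIs of a member.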

Other observations

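Outside neurons and glia, Gria3 stood out in fibroblasts, the cells of the meninges and vessel walls, at 86.4 ± 31.02 CPM in striatum and 79.6 ± 32.2 in cortex (6 pools each, from 58 and 47 UMIs). That was 40.3% and 28.5% of the level in the region's projection neurons, where the list of 8 neuronal genes stood at 11.6% and 4.88%. Single list genes ran from 7.32% to 26.9% in striatal and from 3.64% to 839% in cortical fibroblasts. Cacng7 stood in pericytes at 24.2 ± 10.2 CPM in cortex and 19.4 ± 6.89 in striatum, 57.1% and 93.99% of the projection neurons' level, where the neuronal list stood at 9.41% and 31.95%. Single list genes ran from 1.21% to 472% in cortical and from 17.8% to 91.9% in striatal pericytes. A small cortical cluster of 183 cells named neuroblast or progenitor, led by Igfbpl1 and Calb2, held 120.6 ± 63.3 CPM of Cacng5, 792.5 ± 203 of Gria2 and 270.0 ± 177 of Gria1 in the 4 pools with at least 20 of its cells. These values were not tested.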
